A study of Mus musculus with 9 samples.

Results

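The cytosolic ribosome is built from ribosomal RNA and a set of small proteins, and the genes of those proteins were followed here in the mouse spinal cord. Members were the protein-coding genes whose symbol is Rpl or Rps followed by a number and at most a letter ending. Rpsa, Rplp0, Rplp1 and Rplp2 were included as well. This rule reads only the symbol and the gene type, but it was set with earlier results of these data known. Of the 27179 gene identifiers counted, 81 were members, 50 of the large subunit (Rpl) and 31 of the small subunit (Rps). Rpl6l and Rps4l matched the spelling of the rule but are annotated as pseudogenes and were left out. RNA sequencing had been done on spinal cord tissue from 9 C57BL/6 animals, 3 in each of 3 groups, with 1 library per animal. The groups were Control, EAE (experimental autoimmune encephalomyelitis, in which the immune system attacks myelin, used to model multiple sclerosis) and EAE with oral EHP-101, a compound known by its code name, at 20 mg/kg (EAE+EHP-101, also called treated here). The way EAE was induced, the age and sex of the animals, any vehicle given to Control and EAE mice and the day of sampling were not given in the sources used here.

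A ribosome joins a small subunit, which reads the messenger RNA, to a large subunit, which forms the peptide bond, and each subunit carries its own set of proteins in nearly fixed amounts. Cells make these proteins in step, from short and abundant messages that usually begin with an uninterrupted run of pyrimidines, the TOP motif (terminal oligopyrimidine), through which the mTOR kinase and the RNA-binding protein LARP1 set how much of the message is translated. In nervous tissue every cell type makes ribosomes, and lymphocytes and macrophages that divide or become activated make more of them.

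Values below are CPM, read counts scaled to a common library size with TMM factors, given as mean ± SD over n = 3 libraries, and libraries held 30448507 to 32661741 counts. Fold changes come from the edgeR quasi-likelihood fit over 16749 genes, with the standard error (SE) of the log2 value, and a gene was called at an adjusted p under 0.05 (Benjamini-Hochberg over those genes). Enough counts for the test were found in 77 members, 46 of the large and 31 of the small subunit. The other 4, Rpl10l, Rpl32l, Rpl39 and Rpl39l, held 0, 34, 7 and 51 counts over all 9 libraries. Many members have near-identical pseudogenes, and the coding sequence of 26 of 80 members holds no 50-base word absent from all other genes, so the level of such a member is uncertain. Every p-value measures the spread between these mice of 1 experiment. In whole tissue fewer cells of a type and less RNA per cell cannot be told apart. Both EAE groups are compared with the same Controls and with each other, so the 3 comparisons share libraries.

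The marker genes of neurons, oligodendrocytes and astrocytes were abundant in every library, as the label spinal cord calls for (summed 9787 to 12593 CPM for 10 neuronal and 29804 to 40471 CPM for 10 oligodendrocyte genes). The 12 genes of skeletal muscle together reached 66.9 CPM in Control 1, against 3.90 to 6.57 CPM in the other 8 libraries. Among the Controls, replicate 3 stood apart in the genes studied here. Its members lay above those of the other Controls by a margin given below, so counts are also given without it.

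The annotated transcription start of a ribosomal protein gene was compared with the TOP motif, since that motif is what the members are known to share. RefSeq (GRCm38.p6) gave a promoter window of 250 bases before to 50 after the start for 61 members, the first listed where a gene had several. A C at the start followed by 4 pyrimidines was present in 13 of 61 members (21.3%) and in 2.45% of 26964 other genes. With the run allowed to begin up to 10 bases to either side, 59.0% of members and 30.7% of other genes had it. Shown first are 5 members with the motif and Rps27l, which lacks it at the annotated start. Each is the 30 bases before and the 20 from the start, in the direction of the gene, with the unbroken pyrimidine run at the start in capitals.
Rpl15, chr14:18270967-18271016, minus strand: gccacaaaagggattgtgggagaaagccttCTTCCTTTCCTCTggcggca
Rps15a, chr7:118116128-118116177, minus strand: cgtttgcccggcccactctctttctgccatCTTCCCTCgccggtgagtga
Rps18, chr17:33955646-33955695, minus strand: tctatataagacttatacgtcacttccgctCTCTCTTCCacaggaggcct
Rps10, chr17:27635225-27635274, minus strand: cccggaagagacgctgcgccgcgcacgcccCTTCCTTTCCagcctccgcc
Rps27, chr3:90213629-90213678, minus strand: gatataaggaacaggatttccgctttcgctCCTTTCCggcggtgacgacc
Rps27l, chr9:66946056-66946105, plus strand: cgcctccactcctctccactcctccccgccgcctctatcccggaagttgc
The run is 13 bases long in Rpl15, 10 in Rps10, 9 in Rps18, 8 in Rps15a and 7 in Rps27. The letters CTTCCG, a core of ETS factor motifs, searched on both strands of the whole window, occurred in 67.2% of members and 17.1% of other genes. GGGCGG, the SP1 motif, occurred in 57.4% and 35.9%, and TATAAA in 9.84% and 14.2%.

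The first comparison, of EAE with Control, concerns the effect of the disease model on these transcripts. Most ribosomal protein genes were higher in EAE, by a similar and moderate factor. Of 77 tested members 72 rose, against 20.2% of all genes tested, and 0 fell, against 16.7%. The median member was 1.5-fold higher (log2 0.59, quartiles 0.48 and 0.66), where the median of all genes tested was 0.0055 on the log2 scale. Both subunits moved, with 42 of 46 large-subunit genes higher (median log2 0.54) and 30 of 31 small-subunit genes (median log2 0.61). For the falls, 0 members had an unadjusted p under 0.05 in edgeR and 0 were called by the Wald test of DESeq2, which called the same number of rises, 72. In 71 members every EAE library was above every Control library, against 25.6% of all genes tested, and in 0 members every one was below, against 21.1%. With each library left out in turn the number of rises lay between 68 and 75, and it was 75 without Control 3.

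**Figure D1:**
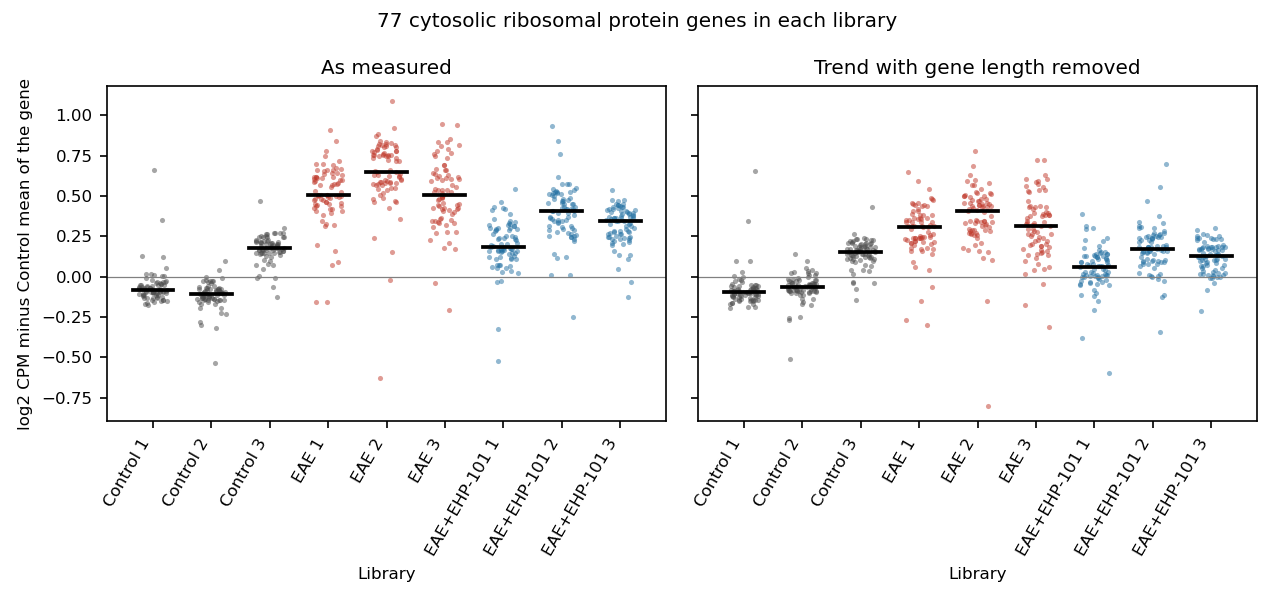
Each point is 1 of the 77 tested ribosomal protein genes in 1 library, as log2 CPM minus the mean of that gene over the Controls, and bars are medians. In the left panel, as measured, EAE medians lie at 0.50 to 0.65 and treated medians at 0.18 to 0.41; in the right panel, with each library's trend with gene length removed, they lie at 0.30 to 0.41 and 0.059 to 0.17, and Control 3 stays above the other Controls in both.

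Among the genes of the stalk, where elongation factors dock, Rplp0 had the clearest rise. Rplp0, the scaffold of the stalk, had 83.7, 84.3 and 99.7 CPM in Control 1, 2 and 3, and 140.6, 155.8 and 143.6 CPM in EAE 1, 2 and 3. All EAE values lay above all Control values, 1.64-fold on average (log2 0.72, SE 0.08, edgeR adjusted p = 0.000117). Its partners in the stalk, the acidic proteins encoded by Rplp1 and Rplp2, rose by 1.43-fold and 1.52-fold, beside a member median of 1.5-fold. Per kilobase of exon, Rplp1 was the most abundant member in the cord, with 503 ± 48.9 CPM per kb in Control and 718 ± 65.9 in EAE (n = 3 each). Next on that scale were Rps14, a gene lost in the 5q- form of myelodysplasia, with 248 ± 37.8 and 389 ± 31.5 CPM per kb, and Rps15, with 243 ± 25.4 and 347 ± 42.9 CPM per kb.

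Among all members Rpl32, of the large subunit, had the smallest p. It had 42.8, 41.5 and 49.5 CPM in the Control libraries and 72.3, 78.7 and 79.4 CPM in the EAE libraries, without overlap. The rise was 1.72-fold (log2 0.78, SE 0.08, edgeR adjusted p = 5.5e-05). Rpl13a, which is also known as part of a complex that silences translation of inflammatory messages in interferon-treated macrophages, had 80.9, 83.2 and 106.1 CPM in Control and 141.3, 151.1 and 148.8 CPM in EAE, again apart (1.63-fold, log2 0.71, SE 0.09, edgeR adjusted p = 0.000281). Rpl5 and Rpl11, which bind 5S ribosomal RNA and, when free, the p53 ligase Mdm2, rose by 1.52-fold and 1.49-fold. Mdm2 itself had 51.5 ± 2.20 CPM in Control and 53.1 ± 3.11 in EAE. Rpl10a, a protein of the L1 stalk, went from 23.9 ± 2.82 to 40.7 ± 4.6 CPM (log2 0.77, SE 0.11), and Rpl12, at the foot of the stalk, from 51.1 ± 5.87 to 86.8 ± 7.60 CPM (log2 0.76, SE 0.10). The highest fitted fold of the large subunit was that of Rpl13, at 1.76-fold, but this gene was listed at only 3.78 ± 1.16 CPM in Control and 6.65 ± 0.449 CPM in EAE, with an SE of 0.20. Rpl38, known for its part in the translation of Hox messages, rose less, from 34.8 ± 3.45 to 49.0 ± 2.18 CPM (log2 0.50, SE 0.07). Rpl3, next to the site of peptide bond formation, and Rpl4, which lines the exit tunnel, had small rises of 1.3-fold and 1.26-fold. Rpl34, with 56.6 ± 7.08 CPM in Control and 89.2 ± 4.95 in EAE, and Rpl37a were among the rises of smallest p, at 1.57-fold and 1.6009-fold. Rpl22, which is known to be needed for the development of T cells, rose by 1.34-fold, and Rpl41, which encodes the shortest ribosomal protein, by 1.45-fold.

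On the small subunit the rises were of the same order. Rps18, part of the head, had 35.9 ± 5.12 CPM in Control and 59.5 ± 3.11 in EAE (log2 0.73, SE 0.10), and Rps20, also of the head, 50.7 ± 6.96 and 85.7 ± 6.58 (log2 0.76, SE 0.10). Rps28 had 15.1, 16.5 and 18.9 CPM in the Control libraries and 26.6, 30.7 and 26.1 CPM in the EAE libraries, a rise of 1.65-fold without overlap (log2 0.72, SE 0.10, edgeR adjusted p = 0.000274). Rps19, the gene most often mutated in Diamond-Blackfan anaemia, rose by 1.58-fold, and Rps6, the protein that the S6 kinases phosphorylate, by 1.38-fold. Rps16 rose by 1.58-fold, Rps26, which contacts the messenger RNA near the exit of its channel, by 1.5007-fold, and Rps4x by 1.36-fold. Rps25, which some viral messages need for entry into the ribosome, rose by 1.56-fold. Rps27a, made as a fusion with ubiquitin, rose by 1.48-fold, and Rpsa, also known as the laminin receptor, by 1.41-fold.

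**Figure D2:**
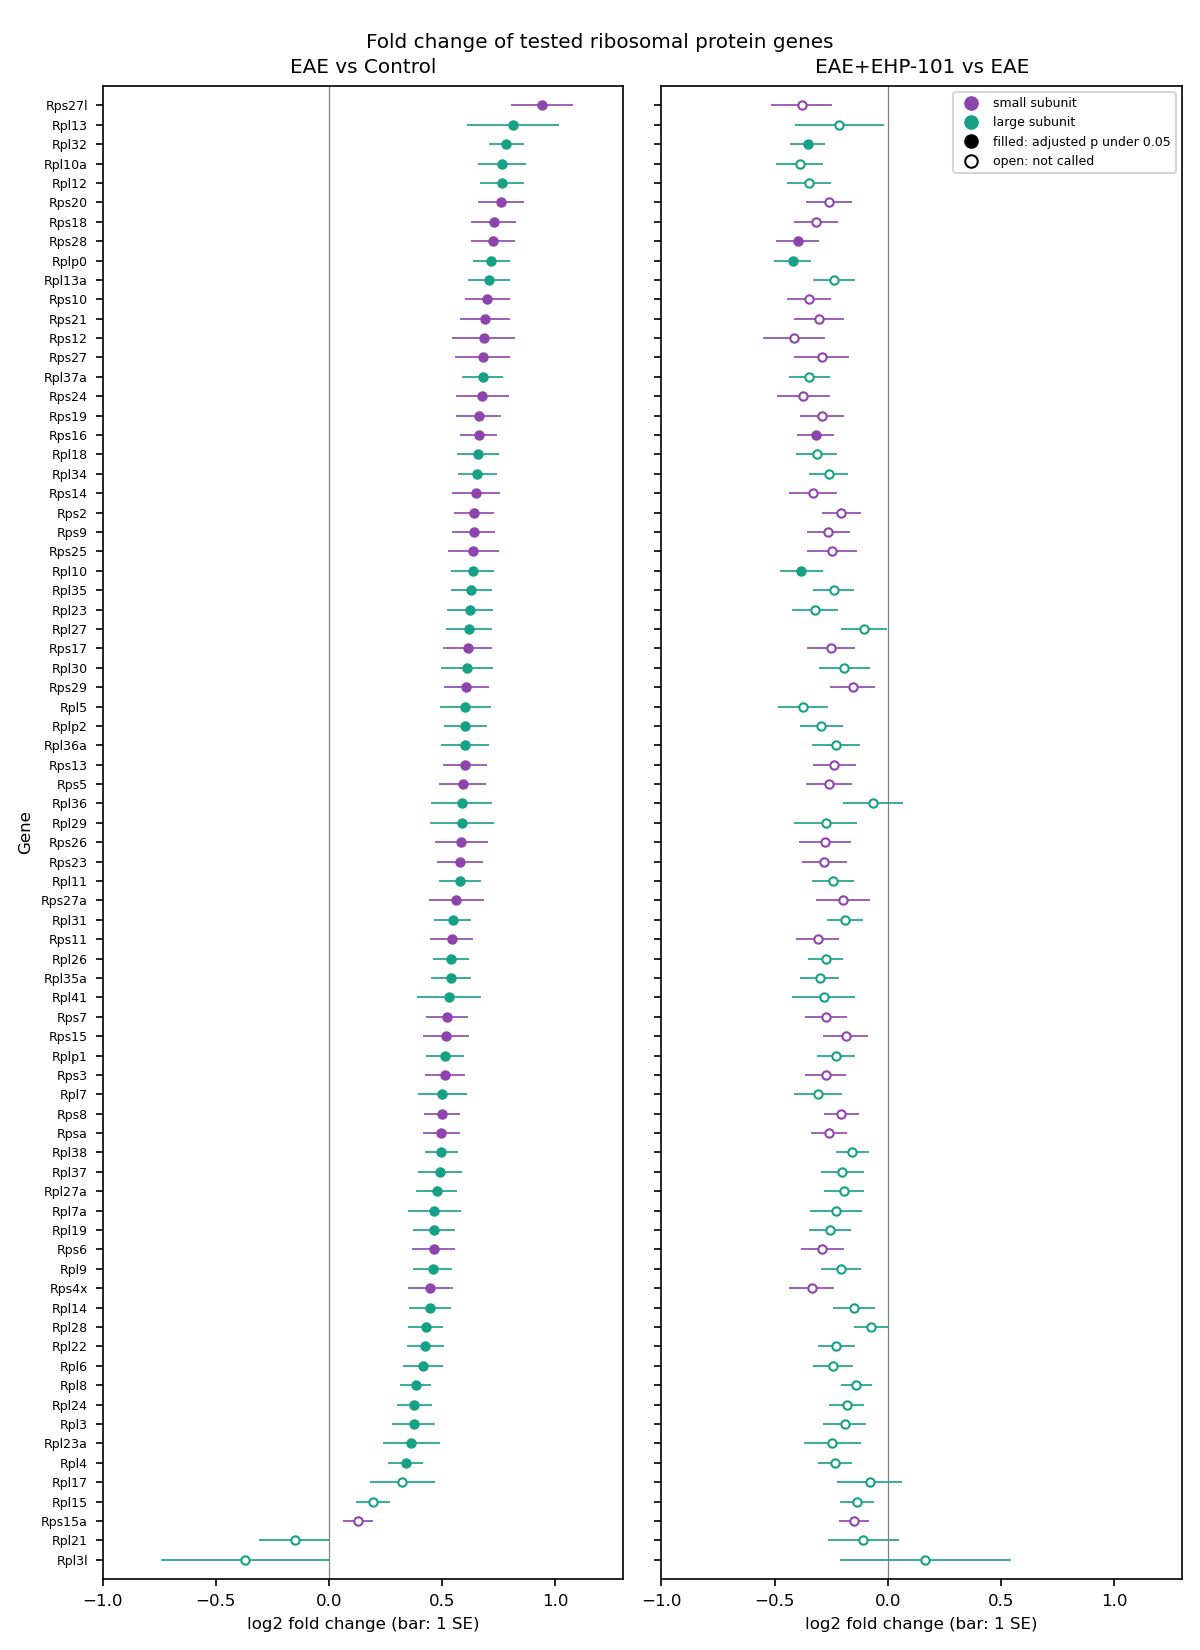
Points are log2 fold changes from edgeR with bars of 1 SE for 76 of the 77 tested genes, coloured by subunit and filled where adjusted p was under 0.05. In the left panel, EAE against Control, all but the 5 lowest genes are filled and lie between log2 0.34 (Rpl4) and 0.94 (Rps27l); in the right panel, EAE+EHP-101 against EAE, 75 of 76 lie below 0 and 5 are filled.

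The largest rise of all members was in Rps27l, a near copy of Rps27 that is known as a target of p53. The first 60 coding bases of both genes are shown because the pair, despite its name, differs at many bases, and those are in capitals (GENCODE vM21).
Rps27, chromosome 3: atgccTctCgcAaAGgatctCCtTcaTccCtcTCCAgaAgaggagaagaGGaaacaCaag
Rps27l, chromosome 9: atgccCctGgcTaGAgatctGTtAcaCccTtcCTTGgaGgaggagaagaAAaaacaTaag
Over the whole coding sequence 194 of 255 bases were identical (76.1%), and 18 of the 60 shown differ. Rps27l had 8.57, 8.48 and 10.1 CPM in Control 1, 2 and 3 and 17.0, 19.3 and 15.9 CPM in EAE 1, 2 and 3. The groups did not overlap, and the rise was 1.92-fold (log2 0.94, SE 0.14, edgeR adjusted p = 0.000438). Rps27 rose by 1.6-fold (log2 0.68, SE 0.12), from 57.6 ± 9.45 to 92.3 ± 10.04 CPM. The difference between the rises of both genes was not tested. Cdkn1a, a p53 target outside the ribosome, had 33.4 ± 1.32 CPM in Control and 34.5 ± 4.39 CPM in EAE. In the list of 12 genes of the p53 response 5 were higher and 2 lower in EAE, against 20.2% and 16.7% of all genes tested. The median log2 of that list was 0.35, and 0.27 with the trend with gene length removed.

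Not called in EAE were Rpl15, Rpl17, Rpl21, Rpl3l and Rps15a. Rps15a, whose table entry is the longest of all members at 5136 bases, had 142.9, 144.6 and 166.9 CPM in Control and 159.1, 167.6 and 170.0 CPM in EAE. Here the highest Control lay within the EAE range (log2 0.13, SE 0.07, 95% interval -0.0025 to 0.26, edgeR adjusted p = 0.155). Rpl15 had 57.7, 56.2 and 68.7 CPM in Control and 67.6, 71.7 and 70.0 CPM in EAE, also overlapping through Control 3 (log2 0.20, SE 0.08, interval 0.05 to 0.34, edgeR adjusted p = 0.0599). Both carry the long pyrimidine runs printed above. Rpl21 was listed at 7.55, 4.84 and 5.64 CPM in Control and 5.28, 5.83 and 5.11 CPM in EAE, with an interval of -0.46 to 0.16. Its coding sequence has no 50-base word of its own, since 82 other genes of the annotation share its words. Rpl17, at 9.45 ± 1.47 and 11.8 ± 2.1 CPM, is another such gene (edgeR adjusted p = 0.101).

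The tissue-restricted members were near or at the limit of detection. Rpl3l, the form of Rpl3 made in skeletal and heart muscle, was listed at 0.953, 0.38 and 0.524 CPM in Control and 0.513, 0.352 and 0.561 CPM in EAE, and its highest value was in Control 1, the library with the high muscle genes given above. Rpl10l, a retrogene active in the testis, had 0 counts in all libraries, which allows up to 0.0906 to 0.0985 CPM per library from counting error alone. Rpl39l, the testis form of Rpl39, had 2, 1 and 2 counts in Control, 9, 28 and 4 counts in EAE, and 2, 3 and 0 counts in treated libraries. These were too few for the test, and 28 of its 51 counts came from EAE 2. Rpl39, which in general is the common form and lines the exit tunnel, was listed with 7 counts in total. The first 60 coding bases of the pair are shown to let a reader judge how well reads of 50 bases separate them, with differing bases in capitals.
Rpl39, chromosome X: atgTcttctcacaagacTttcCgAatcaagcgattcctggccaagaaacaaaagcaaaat
Rpl39l, chromosome 16: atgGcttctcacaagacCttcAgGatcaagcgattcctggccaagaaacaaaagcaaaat
Over the coding sequence 133 of 156 bases agree (85.3%), with 4 differences among the 60 shown. For Rpl39 15.9% of the 50-base words occur in no other annotated gene, for Rpl39l 100%. The 8 other genes that share words with Rpl39 are all annotated as pseudogenes, so its level is uncertain.

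Ribosomal protein genes are short, and in these libraries the fold change followed gene length. The tested members had a median exonic length of 703 bases in the table, and 59 of 77 were under 1000, against a median of 2776 bases for the 16672 other genes. Across those other genes, log2 fold change in EAE and length had a Spearman rho of -0.39, and across the 77 members -0.40. These are descriptions, since genes are not independent replicates. Among other genes under 600 bases the median log2 change was 0.34 and 37.8% were higher, and from 600 to under 1000 bases it was 0.25 with 39.3% higher. Members of the same lengths had medians of 0.60 and 0.59, with 30 of 30 and 28 of 29 higher. Members therefore lay above the median of other genes of their length in both classes. The other genes' deviations from their own mean also followed length in each library except treated 1. The rho was 0.24 to 0.40 in Control and -0.32 to -0.25 in EAE. In treated 1, 2 and 3 it was -0.035, -0.33 and -0.20.

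**Figure D3:**
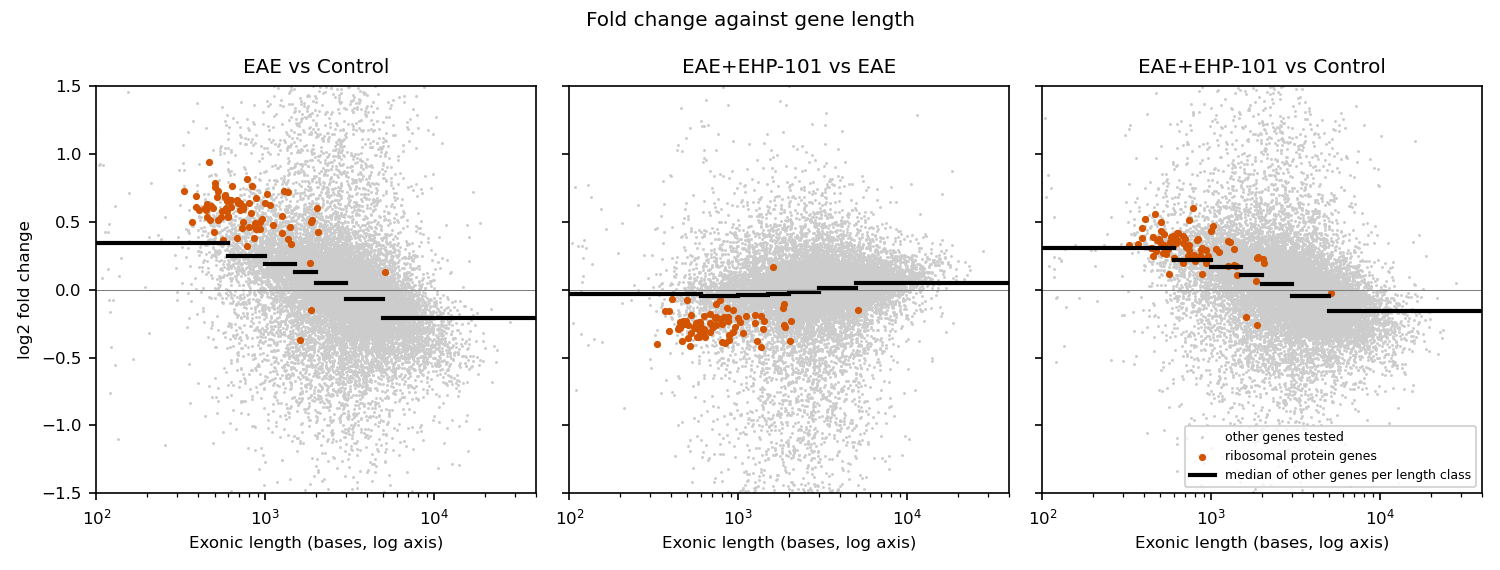
Each dot is a gene, placed by its exonic length in the deposited table (log axis) and its log2 fold change in 1 comparison per panel; other genes are grey, the ribosomal protein genes orange, and black bars are medians of the other genes per length class. Genes beyond the axes are not drawn. In EAE against Control the bars descend from 0.34 to -0.21 and most members lie above the bar of their class, in EAE+EHP-101 against EAE the bars lie between -0.047 and 0.053 with most members below, and in EAE+EHP-101 against Control the bars descend from 0.31 to -0.15, with member medians of 0.35 and 0.30 in the 2 shortest classes.

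The fit was therefore repeated with the smooth trend of each library with length, estimated on the other genes, entered as an offset. In EAE 55 members were then higher, against 16.4% of all genes tested, and 0 were lower, against 9.23%, with a median log2 of 0.33 (1.26-fold), and 54 of them were among the 72 called before. On the small subunit 29 of 31 were higher and on the large subunit 26 of 46, with medians of 0.38 and 0.29. Rplp0 kept a rise of 1.45-fold (log2 0.53, SE 0.07, edgeR adjusted p = 0.000284), Rpl32 one of 1.43-fold (log2 0.52, SE 0.07, edgeR adjusted p = 0.000267) and Rps27l one of 1.6-fold (log2 0.67, SE 0.12, edgeR adjusted p = 0.00172). Rps15a, at the other end of the length range, had log2 0.30 (SE 0.07, edgeR adjusted p = 0.00919) and was called only in this fit. Rpl41, Rpl28, Rpl3, Rpl4, Rps4x, Rps27a and Rpl36 were among those no longer called. The number of rises with the offset was 28 without Control 1, 26 without Control 2, 28 without EAE 2 and 47 without EAE 1 or EAE 3. With the trend estimated only on abundant other genes, an alternative added after the data were seen, 28 members were higher and the median was 0.18. So the size of the rise depended on how length was treated, while the direction of the median stayed the same in all 3 fits.

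The share of all counts that fell in the members shows the same values in 1 number per library, with no test. It was 0.45%, 0.448% and 0.529% in Control 1, 2 and 3, then 0.685%, 0.737% and 0.674% in EAE, and 0.548%, 0.625% and 0.599% in treated libraries. The absolute size of this share is uncertain, since many members have near-identical pseudogenes. EAE libraries were the highest, without overlap, and treated libraries lay between the other groups, with treated 1 close to Control 3. By the median over members of log2 CPM against the Control mean, Control 3 lay at 0.18 and the other Controls at -0.085 and -0.11, while the EAE libraries lay at 0.50, 0.65 and 0.51 and the treated libraries at 0.18, 0.41 and 0.35. With the length trend removed Control 3 lay at 0.15, above treated 1 at 0.059 and treated 3 at 0.13.

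Markers of several immune cell types rose in EAE, as the members did. Their counts stand beside shares of 20.2% higher and 16.7% lower among all genes tested. T cell genes were higher in EAE in 15 of 15 cases and summed to 5.49 to 5.92 CPM in Control, 28.5 to 34.7 in EAE and 6.46 to 18.4 in treated libraries. Genes of monocytes and macrophages were higher in 8 of 12 cases and summed to 138 to 156, 627 to 851 and 153 to 251 CPM. For microglia 8 of 10 genes were higher, with sums of 418 to 526, 939 to 1249 and 509 to 704 CPM. Of the genes of B and plasma cells 5 of 5 tested were higher, with sums of 64.6 to 93.6, 106 to 199 and 87.7 to 105 CPM. Of the genes of neutrophils 1 of 7 tested was higher, with sums of 13.2 to 23.5, 37.2 to 64.6 and 43.4 to 81.1 CPM. All genes of these lists had counts in at least 1 library. Endothelial genes went the other way, with 8 of 10 lower in EAE. The part of these cells in the change of the members was not tested.

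EAE+EHP-101 was then compared with EAE to ask which of these transcripts move when the compound is given. Nearly all members had lower values in treated mice, but few passed the test. Of 77 members 6 fell, against 4.81% of all genes tested, and 0 rose, against 0.43%. For the rises, 0 had an unadjusted p under 0.05 in edgeR and 0 were called by DESeq2. Among the 6 falls were Rplp0, Rpl10, Rpl32, Rps16 and Rps28. The median member was lower by 1.2-fold (log2 -0.26), where the median of all genes was -0.0011, and 54 members had an unadjusted p under 0.05. In 52 members every treated library was below every EAE library, against 16.9% of all genes. DESeq2 called 18 members lower, and a fit on the 6 libraries of both groups called 12. The count rested on single libraries, since it was 26 without Control 3, which is in neither group, 2 without Control 2, 3 without EAE 1, 0 without EAE 2, and 1 without treated 1 or treated 3.

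Rplp0 had the smallest p and the largest fall of all members. Against the EAE values given above, treated libraries 1, 2 and 3 had 101.04, 116.65 and 111.4 CPM, all below EAE and all above Control. The fall was 1.34-fold (log2 -0.42, SE 0.08, edgeR adjusted p = 0.012). Rpl32 had 56.5, 64.0 and 60.01 CPM in treated libraries, likewise between the other groups (log2 -0.35, SE 0.08, edgeR adjusted p = 0.0216). Rps28, with 20.8, 22.5 and 20.0 CPM, fell by 1.32-fold (log2 -0.40, SE 0.10, edgeR adjusted p = 0.0341), and all its treated values stood above all Control values.

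Rpl10, which joins the large subunit late and completes the peptidyl transferase centre, had 59.0, 72.1 and 65.4 CPM in EAE and 47.0, 55.7 and 48.1 CPM in treated libraries. These did not overlap (log2 -0.38, SE 0.09, edgeR adjusted p = 0.0394). Rps16, whose tail reaches the P site of the small subunit, had 54.3, 58.2 and 48.9 CPM in EAE and 41.8, 45.4 and 42.2 CPM in treated libraries (log2 -0.32, SE 0.08, edgeR adjusted p = 0.0472), with the lowest EAE value above the highest treated value. Just short of the threshold were Rpl37a (log2 -0.35, edgeR adjusted p = 0.0507) and Rpl10a (log2 -0.39, edgeR adjusted p = 0.0557). Rps12 had a fall nearly as large as that of Rplp0 but a wider error, with 51.5, 59.1 and 63.9 CPM in EAE and 37.4, 46.2 and 47.3 CPM in treated libraries (log2 -0.41, SE 0.14, edgeR adjusted p = 0.132). Its libraries did not overlap, and it was not called. Rps27l, with 11.3, 16.2 and 12.6 CPM in treated libraries, overlapped EAE through treated 2 and was not called (log2 -0.38, SE 0.13, edgeR adjusted p = 0.155). The fitted values closest to 0 were those of Rpl36 (log2 -0.067, interval -0.33 to 0.19), Rpl28 (-0.073, interval -0.22 to 0.078), Rpl17 (-0.079, interval -0.36 to 0.20) and Rpl27 (-0.11, interval -0.30 to 0.093). Rpl3l alone had a fitted value above 0, at 0.17 with an interval of -0.58 to 0.91.

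**Figure D4:**
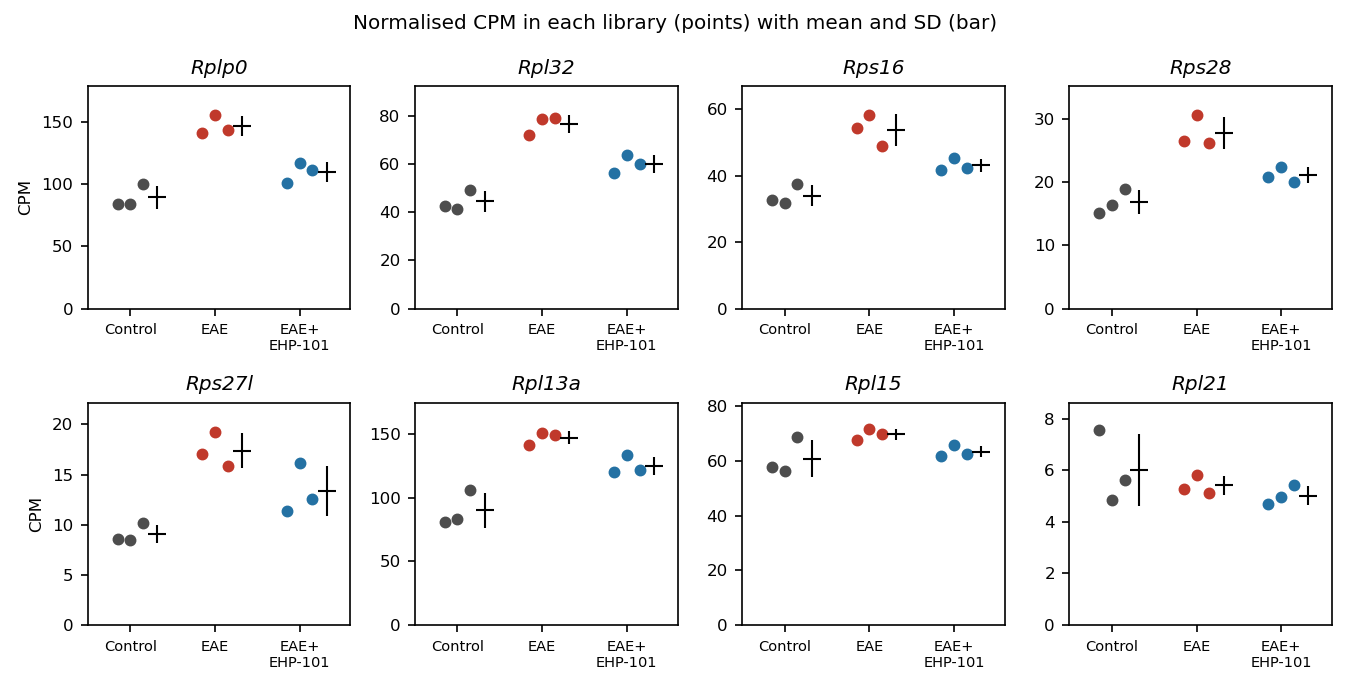
Normalised CPM of 8 ribosomal protein genes, 1 point per library in the order of replicate, with the mean and SD of each group (n = 3) beside the points; every axis starts at 0. In the upper row (Rplp0, Rpl32, Rps16, Rps28) the treated libraries lie between the Control and EAE libraries without overlap. In the lower row Rps27l and Rpl13a rise in EAE, and the groups overlap in Rpl21. In Rpl15 the Controls overlap both other groups, while the treated libraries lie below the EAE libraries.

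In this comparison the trend with length was smaller. Among other genes rho between log2 fold change and length was 0.17, and other genes under 600 bases had a median of -0.029, where the 30 members of that length had -0.27. With the length offset 6 members were lower, against 4.94% of all genes, and the median was -0.21. Of these 5 were the same genes, and Rpl37a was called in this fit (edgeR adjusted p = 0.0495). Rplp0 fell in that fit too, by 0.36 on the log2 scale (SE 0.07, edgeR adjusted p = 0.0113). Among the immune lists above, 6 of 15 T cell genes, 7 of 12 genes of monocytes and macrophages, 7 of 10 microglia genes and 1 of 5 genes of B and plasma cells fell in the same comparison. The share of all genes tested that fell was 4.81%. The neutrophil list did not go with the other immune lists, with 1 of 7 lower and a median log2 of 1.07 toward higher values in treated mice. In that list 6 of 7 were higher in treated mice than in Control, against 9.96% of all genes tested. The part of these cells in the fall of the members was not tested.

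EAE+EHP-101 against Control asked what remained in treated mice. Here 42 of 77 members were higher, against 9.96% of all genes tested, and 0 were lower, against 9.82%, with 0 lower at an unadjusted p under 0.05 in edgeR and 0 lower by DESeq2. The median was log2 0.31, against 0.015 for all genes, and in 42 members all treated libraries stood above all Control libraries, against 19% of all genes. Rpl32 had the smallest p (log2 0.43, SE 0.08, edgeR adjusted p = 0.00698). Rpl13a, with 119.8, 133.2 and 121.4 CPM in treated libraries, was higher than in every Control (log2 0.47, SE 0.09, edgeR adjusted p = 0.00926). Rps20 was 1.41-fold and Rps29 1.37-fold higher, and Rps27l 1.47-fold (log2 0.56, SE 0.14, edgeR adjusted p = 0.0188). Rpl36 was 1.43-fold, Rpl27 also 1.43-fold, Rpl28 1.28-fold, Rpl38 1.27-fold and Rpl31 1.28-fold higher. Rps2, at the entry of the messenger RNA channel, had 24.1, 24.7 and 25.7 CPM in Control and 33.6, 34.2 and 33.1 CPM in treated libraries, 1.35-fold apart (log2 0.44, SE 0.09, edgeR adjusted p = 0.00957), and Rpl34 was 1.31-fold higher. Rpl13 had the highest fitted value without a call (log2 0.60, SE 0.21, edgeR adjusted p = 0.0603). At the low end lay Rpl21 (log2 -0.26), Rpl3l (-0.20), Rpl15 (0.060) and Rpl4 (0.11), none of them called. Rps15a, at 148.2, 152.3 and 147.4 CPM, lay among the Controls, with an interval of -0.15 to 0.11.

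Members were again set beside other genes of their length, and the differences were not tested. Other genes under 600 bases had a median of 0.31 with 27.0% higher, and the members 0.35 with 23 of 30 higher. From 600 to under 1000 bases other genes had 0.22 with 25.05% higher, and the members 0.30 with 14 of 29 higher. From 1000 to under 1500 bases the medians were 0.17 and 0.29. With the length offset 1 member remained higher, Rpl13a (log2 0.30, SE 0.08, edgeR adjusted p = 0.0458), against 5.10% of all genes tested, 0 were lower, against 4.25%, 13 members had an unadjusted p under 0.05, and the median fell to 0.12. With the trend taken from abundant genes 0 were higher and the median was -0.0073. Without the offset the count also rested on single libraries: it was 11 without Control 1, 7 without Control 2, 1 without treated 2, 9 without treated 3 and 63 without Control 3.

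Some genes of ribosomal proteins or their near copies carry other symbols. Fau, which encodes Rps30 fused to a ubiquitin-like protein, went from 49.4 ± 3.78 CPM in Control to 84.4 ± 6.53 in EAE (log2 0.77, SE 0.08, edgeR adjusted p = 9.04e-05), and 68.3 ± 6.18 in treated mice. Rack1, a scaffold on the head of the small subunit, rose by 1.71-fold in EAE (log2 0.78, SE 0.09, edgeR adjusted p = 0.000142) and fell in treated mice (log2 -0.42, SE 0.09, edgeR adjusted p = 0.0216), and both calls held with the length offset. Of 7 tested genes, namely Rack1, the small-subunit gene Rps3a1 and near copies of members, 3 were higher in EAE and 1, Rack1, with the offset. The shares of all genes tested were 20.2%, and 16.4% with the offset. Rps3a1 and Rpl36al rose in EAE but were not called with the offset, and Rpl22l1, Rpl7l1, Rpl37rt and Rps27rt did not pass the test in either fit.

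Lists from the rest of the translation machinery had lower medians in EAE than the members, a difference that was not tested. Their genes are longer, with median lengths of 2017 bases for elongation and 2409 for initiation genes, against 703 for the members. With the length offset the medians were 0.22 for elongation and 0.064 for initiation genes, against 0.33 for the members. Of 11 elongation genes 6 were higher and 1 lower, against 20.2% and 16.7% of all genes tested, with a median log2 of 0.18. Eef1b2, an exchange factor, rose from 129 ± 10.3 to 186 ± 16.6 CPM (log2 0.53, SE 0.08), and Tpt1 from 67.6 ± 4.37 to 100 ± 9.62 CPM (log2 0.57, SE 0.08). Eef2, the translocase, had 1079 ± 48.4 and 1081 ± 65.5 CPM. Among 31 initiation genes 12 were higher and 3 lower (median 0.11). In this list Pabpc1, the poly(A)-binding protein, rose by 0.56 (SE 0.08) and in treated mice fell by 0.46 (SE 0.08, edgeR adjusted p = 0.00735).

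Making ribosomes also needs assembly factors and RNA polymerase I. Of 40 assembly genes 9 were higher and 3 lower in EAE (median log2 0.12), and of 11 genes of polymerase I 2 were higher and 2 lower (0.082). With the length offset these medians were 0.051 and 0.038. For all genes tested the shares were 20.2% higher and 16.7% lower, to be set beside every list of this paragraph. Of 10 chaperones and importins of ribosomal proteins 2 were higher and 2 lower. Of 19 regulators of TOP messages 4 were higher and 5 lower (median -0.072). The 2 named kinase and binding genes, Mtor (log2 -0.29, SE 0.084) and Larp1 (log2 -0.26, SE 0.079), are long transcripts and lost their call with the offset, at 0.04 and -0.015. Of 13 genes of ribosome rescue 2 were higher and 3 lower, and 0 passed in either direction with the offset.

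Short genes of other complexes were examined because they share the members' lengths. Of 77 mitochondrial ribosomal protein genes, whose median length was 1055 bases, 52 were higher and 1 lower in EAE (median log2 0.26), and with the length offset 10 were higher and 1 lower (median 0.049). Among all genes tested 20.2% were higher and 16.7% lower, and with the offset 16.4% and 9.23%. For the 20S proteasome core 12 of 14 were higher (median 0.24) before and 1 of 14 after the offset (median 0.025). Of 12 snoRNA host genes tested 8 were higher, Zfas1 among them, and 0 with the offset. Of 8 pseudogenes of ribosomal proteins with enough counts 1 was higher before and 0 after it. With the offset 55 of 77 members were higher, as given above, and fewer with the trend from abundant genes. The offset was estimated on genes that include these lists but leave out the members, so both are not treated alike. The difference between these lists and the members was not tested.

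Members with the TOP motif at the annotated start did not stand out by value. The 12 tested ones had a median log2 of 0.55 in EAE, with 10 called, and the 45 others with a window had 0.60, with 44 called. Across treated and EAE mice both medians were -0.26. With the run allowed to begin up to 10 bases to either side, the order in EAE was the other way. The 32 tested members with it, Rps27l among them, had a median of 0.60, with 29 called. The 25 without it had 0.58, with 25 called. Members with CTTCCG in the window had a median of 0.59 and those without it 0.61. A match of letters is a description of the window and not a measured site. The starts were annotated and not measured, and 13 of 61 members had the motif there. These classes therefore cannot separate messages with the motif from messages without it.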

How the data were processed

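The deposited table holds raw read counts per gene under Entrez identifiers, per the file headers, with exon coordinates in mm10 and a length per gene. Per the labels' protocols, poly-A RNA (1 µg of total RNA) was made into stranded libraries and read as single-end 50 bp. Per the submitters' processing notes, mm10, DESeq2 1.20.0, HISAT2 2.1.0, Trimmomatic 0.36 and featureCounts 1.6.1 were used. The role of each, the strand setting and the treatment of multiply mapped reads were not given in the sources used here. RefSeq names matched 25275 of 27179 identifiers, and the others held 0.311% to 0.619% of a library's counts. Genes were filtered with filterByExpr and fitted in edgeR 4.0.16 (R 4.3.3) with TMM factors and 1 mean per group over 9 libraries, with Benjamini-Hochberg adjustment. The length offset was a natural spline (4 degrees of freedom) of log2 length per library. DESeq2 1.42.0 gave the alternative Wald test. The scripts were tested on simulated data. Members and gene lists were chosen with earlier results of these data known. Named with values were, per comparison, the 10 called members of smallest p without overlap, the 5 largest rises and falls, the least and most abundant members, and members fixed for their role, except where values are not reported. Genes outside the members were named from the lists, some of them after their values were seen. Uniqueness was the share of 50-base words of the GENCODE vM21 coding sequence found in no other gene. Intervals are at 95%, and a count of 0 allows up to 3 counts (counting error only). Values of some genes are not reported here.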

Additional observations from a re-analysis of the deposited data

How the results depend on the processing

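Across TMM, DESeq2 size factors, library totals, upper quartile factors, TMM factors computed without the members, no filter and a filter of 50 counts in 3 libraries, no count of called members moved by over 1.5 times, and the DESeq2 Wald test moved 1, the falls in treated against EAE mice (18 for 6). A fit on the libraries of both groups alone gave 12 there. The cause was not tested beyond what the settings change. With each library left out, rises in EAE were 68 to 75, falls in treated against EAE mice 0 to 26, and rises in treated mice against Control 1 to 63. With the length offset as well these ranges were 26 to 64 (47 without EAE 1 or EAE 3), 0 to 21 and 0 to 13. For EAE against Control the median of 0.59 became 0.33 with the offset from all genes or from genes outside the members and 0.18 with the one from abundant genes (28 members higher), and, with a library left out too, 0.26 and 0.27 (Control 1 and 2), 0.39 (Control 3), 0.37, 0.28 and 0.32 (EAE 1, 2 and 3) and 0.33 without any treated library. For treated mice against Control the median of 0.31 became 0.12, 0.12 and -0.0073 under the same offsets, with 1, 1 and 0 members higher, and, with a library left out, 0.063, 0.072 and 0.17 (Control 1, 2 and 3), 0.12, 0.11 and 0.12 (EAE) and 0.15, 0.077 and 0.099 (treated). The trend of fold change with length was stronger among genes whose log2 CPM averaged at least 3 (rho -0.56 for -0.39). Under the offset from abundant genes the sign turned for Rpl28 (-0.055) and Rpl38 (-0.027) in EAE against Control, and in treated mice against Control for Rpl11 (-0.023), Rpl28 (-0.041), Rpl37a (-0.026), Rpl38 (-0.11), Rplp1 (-0.12), Rplp2 (-0.11), Rps15 (-0.055), Rps16 (-0.0069) and Rps28 (-0.15). With the offset, Rplp1 was at -0.0062 without Control 2 and Rps28 at -0.024 without Control 1 in that comparison. Libraries held at least 30448507 counts; 4 members had too few for the test, and Rpl3l had wide intervals.

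Libraries with the same replicate number did not deviate together (correlations of -0.19 to 0.12). These values gave no sign that the numbers pair the mice, but with so few libraries per group they cannot settle it. With the replicate number as a block 72 members were higher in EAE, 4 lower in treated against EAE mice and 33 higher in treated mice against Control. With the replicate block and the length offset the medians were 0.33 for EAE and 0.12 for treated mice, each against Control, and 0 members were higher in treated mice.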

Other observations

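How far the counting could separate members from their many pseudogenes was looked at through the coding sequences. Of 80 members with a value, 26 had no 50-base word of their own, 43 had under 10% of such words and 6 had over 90%. Counts were nevertheless assigned to all 26 members without a word of their own, with a median of 68.9 CPM per kb (2.95 to 244), against 102 for the 15 members with 50% or more. Levels of members in these classes may be split with near copies and are uncertain. The rise in EAE had nearly the same median in each class, at log2 0.58, 0.59, 0.62 and 0.53 from the least to the most unique. Of the 13 tested members with 50% or more of their own words 12 were higher in EAE, and 9 with the length offset.

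Rps4l, a transcribed pseudogene that the rule leaves out, had 414, 499 and 559 counts in Control, 679, 665 and 656 in EAE and 622, 568 and 600 in treated libraries. Counts of large-subunit members stood to those of small-subunit members at 1.49 to 1.52 in Control, 1.43 to 1.47 in EAE and 1.44 to 1.51 in treated libraries.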
